A study of Mus musculus with 19 samples.

Results

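Prostaglandins are made and sensed through a short chain of genes, and 10 of these were followed in the mouse endometrium: the phospholipases Pla2g4a and Pla2g10, the cyclooxygenases Ptgs1 and Ptgs2, the terminal synthases Ptges and Ptgis, the degrading enzyme Hpgd and the receptors Ptger2, Ptger4 and Ptgfr. They were chosen by name from the pathway, with earlier results of these data known. Each was matched to the gene identifiers of the count table through mouse GENCODE symbols (GRCm38). All 10 were found among 49089 genes, and all 10 were among the 17222 genes expressed above the low-count filter (3 CPM in 3 libraries). Pla2g10 and Ptgfr passed it only through the 16 mated libraries, so a difference from estrus was built into their selection, and both were also called in all 4 comparisons with estrus when no low-count filter was set. The endometrium, scraped away from the myometrium, came from young adult wild type C57Bl/6 females, and each library held a pooled sample. CONT females were virgins in estrus and received no treatment (3 libraries, numbered 1, 2 and 4). The authors collected them late in the evening, around the time of ovulation. INT females had mated with intact Balb/c males and were collected at noon on day 3.5 post-coitum (pc), shortly before the embryo attaches (4 libraries). A comparison with CONT thus carries mating as well as stage, and for INT also the time of day, which cannot be told apart. The groups coded SVX, SVX_VAS and VAS (4 libraries each) were collected at that same stage, and their Balb/c mates had been vasectomised, deprived of seminal vesicles, or both. For these 3 groups the code and the written treatment of a library name different surgeries: code SVX is paired with vasectomised males, code SVX_VAS with seminal vesicle-deficient males, and code VAS with males carrying both. They are therefore called by their codes, and no surgery is read from them. How many animals a pool held was not found in the sources used here, so n = 3-4 pooled samples per group, and p-values measure the spread between pools.

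Phospholipase A2 enzymes release arachidonic acid from membrane phospholipids, the cyclooxygenases turn it into prostaglandin H2, and terminal synthases convert that into PGE2, prostacyclin, PGF2alpha and other prostanoids. Each prostanoid acts on its own G protein-coupled receptors, and 15-hydroxyprostaglandin dehydrogenase, the product of Hpgd, inactivates PGE2 and PGF2alpha. In the uterus prostaglandins are known for roles in implantation, decidualization, blood flow and labor, and mice that lack Ptgs2 or Pla2g4a have impaired implantation.

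Promoter sequences of the 2 cyclooxygenases and of the PGE2 receptor gene Ptger2 are shown, because the cyclooxygenases share a substrate yet varied differently between libraries, and Ptger2 rose in every mated group. Each run is the 250 bases before the RefSeq start site on GRCm38.p6, 5′ to 3′ on the strand of the gene, for Ptgs1 at chr2:36230176-36230425 (+), Ptgs2 at chr1:150099781-150100030 (+) and Ptger2 at chr14:44987861-44988110 (+). Capitals mark a GC box, GGGCGG.
Ptgs1: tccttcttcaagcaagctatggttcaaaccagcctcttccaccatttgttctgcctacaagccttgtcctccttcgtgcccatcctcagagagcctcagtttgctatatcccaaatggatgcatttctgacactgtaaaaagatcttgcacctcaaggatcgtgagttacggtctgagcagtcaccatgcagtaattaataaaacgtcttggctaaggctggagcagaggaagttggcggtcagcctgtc
Ptgs2: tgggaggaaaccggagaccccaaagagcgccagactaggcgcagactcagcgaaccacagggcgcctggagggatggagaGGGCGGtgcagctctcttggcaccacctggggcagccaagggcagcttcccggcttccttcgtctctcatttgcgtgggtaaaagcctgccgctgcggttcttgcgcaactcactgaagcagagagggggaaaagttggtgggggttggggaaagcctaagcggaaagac
Ptger2: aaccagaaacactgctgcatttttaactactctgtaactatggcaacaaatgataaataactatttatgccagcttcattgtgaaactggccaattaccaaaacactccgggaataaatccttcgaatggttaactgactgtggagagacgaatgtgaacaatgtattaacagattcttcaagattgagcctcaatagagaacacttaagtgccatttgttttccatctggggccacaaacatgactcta
Motifs were searched on both strands. The TATA box was spelled TATAAA and the GC box GGGCGG. The cAMP response element was spelled TGACGTCA and its shorter core, which lies within it, TGACG. The E-box was spelled CACGTG, and a box bound by Krüppel-like factors was spelled CACCC, whose matches can overlap those of the GC box. The Ptgs2 window held 1 match, the GC box 170 to 165 bases before the start, and the Ptgs1 and Ptger2 windows held none of these letters. Bases downstream of the annotated start or farther upstream were not searched, so a missing match does not show that a promoter lacks the element. GGGCGG occurred in 32.7% of 32851 RefSeq promoters of the same length, CACCC in 52.0%, TGACG in 17.8%, TATAAA in 12.4%, CACGTG in 6.02% and TGACGTCA in 1.55%. The Ptgs1 window was 48.0% G and C, the Ptgs2 window 61.6% and the Ptger2 window 38.0%, against a median of 52.4%. Of the 10 genes, 9 matched an entry of the promoter table, Ptgis being the exception. The windows of Pla2g10 and Ptgfr lie in or reach into exons of the GENCODE models and are not printed. Pla2g10 held 2 matches to CACCC, 2 to GGGCGG and 1 to TGACG, and Ptgfr 1 to CACCC and 1 to GGGCGG.

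Library sizes were between 12661266 and 31781270 counts on genes. VAS replicates 2 and 3 stood apart from all other libraries. Their abundant nuclear RNA Malat1 was at 545 and 544 CPM (counts per 1000000, on TMM-scaled library sizes), against 8210 to 13963 CPM in the other 17, and over 17222 genes they correlated with each other at r = 0.984 but with the rest at 0.646 to 0.781, while the other 17 correlated with each other at 0.771 to 0.993. In these 2 libraries stromal markers summed to 2761 and 2926 CPM, against 8846 to 11950 CPM in the other mated libraries, neutrophil markers to 56.9 and 71.6 against 8.83 to 26.7 CPM, and red blood cell markers to 32.3 and 33.4 against 54.9 to 104.6 CPM. The part of these differences in the VAS values was not tested. Values of VAS are given below with all 4 libraries, and without these 2 where that changed a result. Across the groups the tissue also differed in its marker genes. The summed level of 12 epithelial markers was 5545 to 7232 CPM in CONT and 929 to 3441 CPM in INT (8 of 12 lower), that of 12 stromal markers 6542 to 7002 and 9923 to 11950 CPM (8 of 12 higher), and that of 6 endothelial markers 174 to 256 and 662 to 988 CPM (6 of 6 higher). Of 6 gland markers 4 were higher, and their sum went from 123 to 151 CPM in CONT to 237 to 620.5 CPM in INT, opposite to the epithelial sum. Macrophage markers (5 of 7 higher, 1 lower), red blood cell markers (4 of 5 higher) and progesterone-response genes (8 of 10 higher, 1 lower) also moved. Of 7 mast cell markers Kit alone passed the filter, and it was higher, with a list sum of 17.8 to 22.7 CPM in CONT and 45.4 to 74.2 CPM in INT. The mesothelium and fat list summed to 33.6 to 35.9 and 22.6 to 29.3 CPM, with 0 of 3 tested genes called. Of the other lists, smooth muscle had 1 of 8 genes higher, neutrophil 1 higher and 1 lower of 3 tested, eosinophil 1 of 2 tested lower, estrogen response 1 of 9 lower and proliferation 0 of 6 called. These calls are for INT against CONT, and in the other mated groups some differed in number: 7, 2 and 3 of 9 estrogen-response genes were lower in SVX, SVX_VAS and VAS, 6, 4 and 4 of 6 gland markers higher, 1, 3 and 1 of 6 proliferation genes lower, 8, 8 and 6 of 12 stromal markers higher and 10, 9 and 9 of 12 epithelial markers lower. Epcam at 462.5 to 674.5 CPM and Vim at 210 to 239 CPM, defining markers of epithelium and stroma, were present in CONT. In pooled tissue, fewer cells of a type and less RNA per cell cannot be told apart, and the part of tissue makeup in the changes below was not tested.

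Between estrus and day 3.5 pc after intact mating, 6 of the 10 genes rose and 0 fell, where a call needs an FDR of at most 0.05 in edgeR and a change of at least 1.498-fold either way (the fold cutoff). logFC is the log2 fold change. The changes were largest for the secreted phospholipase Pla2g10 and for the receptor genes Ptgfr and Ptger2, and 1.65- to 1.82-fold for Ptgs1, Ptges and Hpgd. The inducible cyclooxygenase Ptgs2, Pla2g4a, Ptgis and Ptger4 did not pass. Over all 17222 genes tested, 20.9% were higher and 12.7% lower by the same cutoffs, and the median logFC was -0.01 over all genes and 0.79 over the 10. The 10 were chosen with earlier results of these data known, so these values are set side by side without a test. Libraries of INT and CONT did not overlap for 7 of the 10 genes, against 62.3% of all genes tested.

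In the other mated groups the counts for the 10 genes were 6 higher and 0 lower in SVX, 5 and 0 in SVX_VAS and 7 and 1 in VAS. The background was 23.1% higher and 18.5% lower for SVX, 22.2% and 16.5% for SVX_VAS, and 23.3% and 17.3% for VAS. Pla2g10, Ptges, Ptger2, Ptgfr and Hpgd rose in all 4 comparisons, which share the CONT libraries, although the Hpgd call in VAS was lost in 7 of 15 alternatives. Without VAS replicates 2 and 3 the VAS count was 5 higher and 0 lower, with Ptgis, Hpgd and Ptger4 lost, and the background was then 23.4% higher and 12.5% lower.

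**Figure D1:**
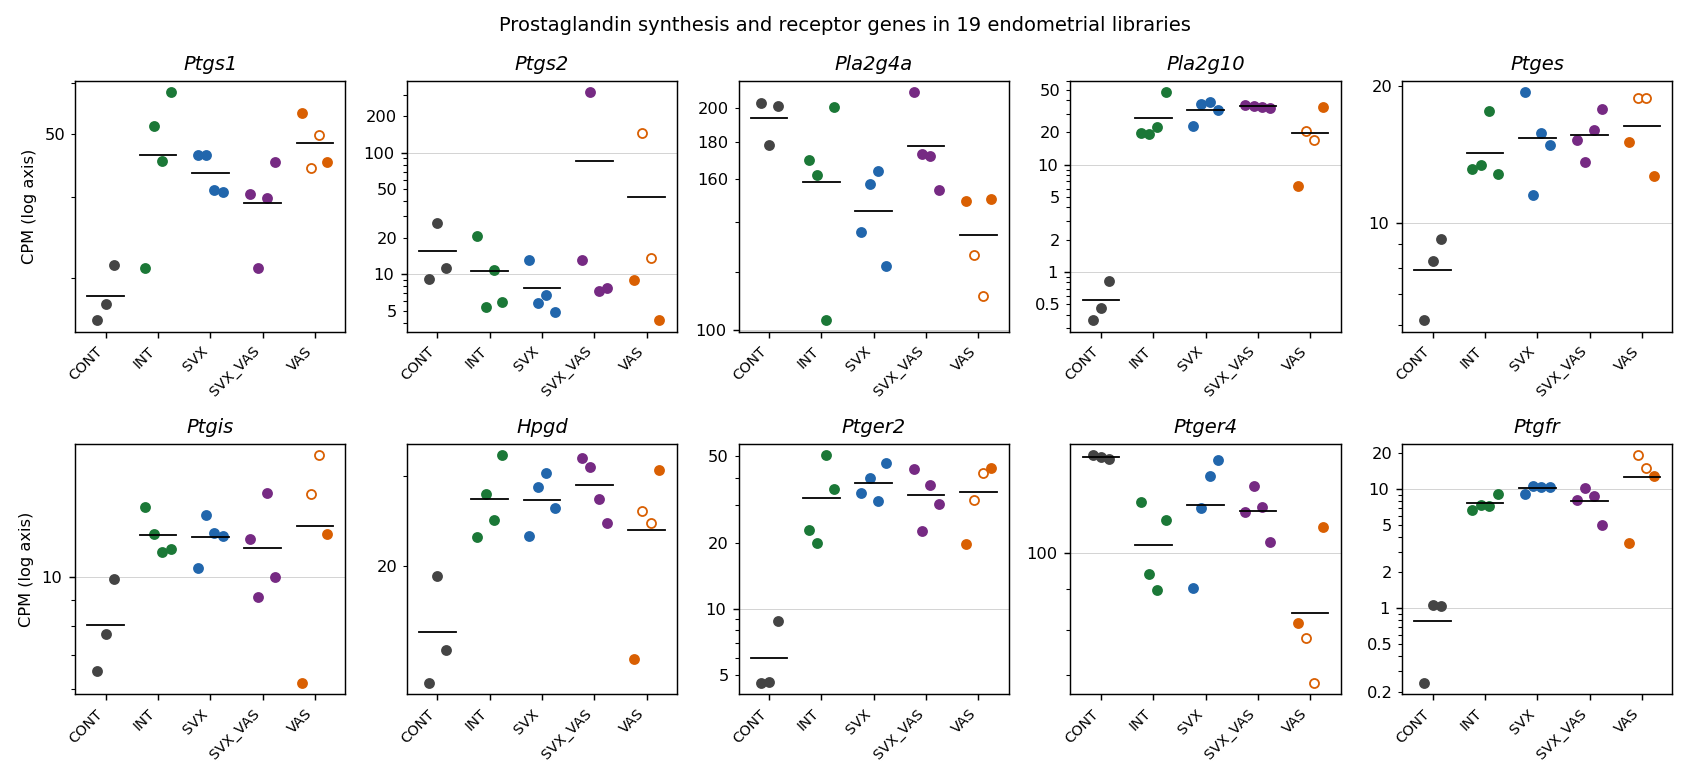
Level of each gene (CPM, log axis) in every library, with groups along the horizontal axis, points for libraries and lines for group means; open points are VAS replicates 2 and 3. Pla2g10 lay between 0.354 and 0.8286 CPM in CONT and between 6.33 and 47.3 CPM in the mated groups, while Ptgs2 had its highest values in SVX_VAS replicate 2 (313 CPM) and VAS replicate 2 (146 CPM).

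Pla2g10 encodes group X secreted phospholipase A2, which acts outside the cell (ENSMUSG00000022683, chr16:13715057-13730983, - strand). In CONT it was at 0.354, 0.464 and 0.8286 CPM, and in INT at 19.9, 19.2, 22.7 and 47.3 CPM. Every mated library lay above every estrous library, and INT replicate 4 stood above the rest of its group. The logFC was 5.67 (SE 0.57, FDR 3.85e-06), or 50.8-fold. The estrous values rest on 6, 13 and 11 counts, so the size of the fold depends on few reads. In SVX the libraries held 23.0, 36.6, 38.7 and 32.5 CPM, in SVX_VAS 36.5, 35.6, 34.5 and 34.0 CPM and in VAS 6.33, 20.6, 17.0 and 34.7 CPM. Group means were 27.3 ± 13.4 (SD, n = 4) in INT, 32.7 ± 6.95 in SVX, 35.1 ± 1.12 in SVX_VAS and 19.6 ± 11.7 CPM in VAS, where replicate 1 had the lowest level of any mated library. Against CONT the logFC was 5.93 (SE 0.58, FDR 1.51e-06) in SVX, 6.03 (SE 0.58, FDR 1.85e-06) in SVX_VAS and 5.19 (SE 0.56, FDR 4.03e-06) in VAS. The 4 comparisons share the same CONT libraries and are set side by side as such. VAS replicate 1 also had the lowest endothelial marker sum of the mated libraries, 559 CPM. Its progesterone-response sum was 340.5 CPM, its epithelial sum 2969 CPM and its estrogen-response sum 3304 CPM. In VAS replicate 4 these sums were, in the same order, 1076, 625.8, 1097 and 240.8 CPM. Their part in the levels of VAS replicate 1 was not tested.

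Pla2g4a encodes cytosolic phospholipase A2, the main enzyme that frees arachidonic acid inside the cell (ENSMUSG00000056220, chr1:149829618-149961290, - strand). It was at 203, 178 and 201 CPM in CONT and at 170, 162, 103 and 200.5 CPM in INT. The groups overlapped, and the logFC of -0.29 (SE 0.18, FDR 0.204) did not pass. SVX libraries held 136, 158, 164 and 122 CPM, SVX_VAS libraries 209.7, 173, 172 and 155 CPM and VAS libraries 149.5, 126, 111 and 151 CPM. SVX and VAS lay wholly below CONT, with logFC of -0.42 (SE 0.18, FDR 0.0567) and -0.53 (SE 0.18, FDR 0.0190), the latter short of the fold cutoff. Without CONT replicate 2, VAS replicate 1 or VAS replicate 4 that logFC was -0.59, -0.58 and -0.59 and passed, and without VAS replicates 2 and 3 it was -0.32 (FDR 0.206). Per kilobase of gene length, Pla2g4a was the gene with the highest mean of the 10 in CONT and in INT (30.3 ± 2.17 and 24.9 ± 6.36 CPM per kb), whereas Pla2g10 went from 0.365 ± 0.165 to 18.1 ± 8.93 CPM per kb.

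Ptgs1 encodes cyclooxygenase 1, the form that most tissues express steadily (ENSMUSG00000047250, chr2:36230426-36252272, + strand). It was at 25.9, 27.4 and 31.4 CPM in CONT and at 31.1, 51.4, 45.4 and 57.9 CPM in INT. INT replicate 1 lay within the estrous range, and the other 3 INT libraries lay above it. The logFC was 0.72 (SE 0.17, FDR 0.00218), or 1.65-fold. SVX libraries held 46.4, 46.4, 41.0 and 40.7 CPM, SVX_VAS libraries 40.4, 31.1, 39.8 and 45.3 CPM and VAS libraries 53.9, 44.4, 49.9 and 45.3 CPM. Ptgs1 rose in SVX (logFC 0.63, SE 0.17, FDR 0.00427) and VAS (0.78, SE 0.17, FDR 9.95e-04), but in SVX_VAS the logFC of 0.47 (SE 0.17, FDR 0.0247) was short of the fold cutoff. Without CONT replicate 1 the SVX value was 0.57 and also short of it.

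Ptgs2 encodes cyclooxygenase 2, the form induced by hormones, cytokines and injury (ENSMUSG00000032487, chr1:150100031-150108227, + strand). It was at 9.21, 26.4 and 11.3 CPM in CONT and at 20.7, 5.45, 10.9 and 5.91 CPM in INT. These ranges overlapped, and the logFC was -0.55 with an SE of 1.27 (FDR 0.766). SVX libraries held 13.2, 5.78, 6.83 and 4.91 CPM. SVX_VAS libraries held 13.1, 313, 7.34 and 7.67 CPM, and VAS libraries 9.02, 146, 13.7 and 4.21 CPM. Thus 1 library in each of these groups stood far above all others, and the remaining 14 mated libraries lay between 4.21 and 20.7 CPM. The logFC against CONT was -1.04 (SE 1.29, FDR 0.526) in SVX, 2.44 (SE 1.36, FDR 0.145) in SVX_VAS and 1.46 (SE 1.31, FDR 0.350) in VAS. None of these passed, and without the high library the sign turned, to -0.74 without SVX_VAS replicate 2 and to -0.78 without VAS replicate 2. Pla2g4a, which lies 138740 bases away from Ptgs2 on chromosome 1, was at 173 and 126 CPM in the same 2 libraries, within the range of their groups.

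The tested genes most like Ptgs2 across the 19 libraries, by the root mean square difference of centered log2 CPM, were Slc5a8 (0.70), Cfap69 (0.86) and Noxo1 (0.87). Slc5a8, a monocarboxylate transporter, was at 181 CPM in SVX_VAS replicate 2 and 111 CPM in VAS replicate 2, and at 70.9 CPM in INT replicate 1. The nearest of the other 9 prostaglandin genes was Ptges, at 1.57. Pla2g2e, a secreted phospholipase of the pathway list, was named here after its values were seen. It was at 5.61, 14.7 and 7.46 CPM in CONT, at 8.04, 2.13, 0.057 and 0 CPM in INT, at 12.8 CPM in SVX_VAS replicate 2 and at 10.6 CPM in VAS replicate 2. Outside those libraries the mated groups held at most 2.20 CPM of Pla2g2e. The summed level of 9 estrogen-response genes was 13550 to 15580 CPM in CONT, 10020 CPM in INT replicate 1, 10620 CPM in SVX_VAS replicate 2 and 1509 CPM in VAS replicate 2, and 240.4 to 3951 CPM in the other mated libraries. SVX_VAS replicate 2 was thus high in all 3 measures, whereas VAS replicate 2 was high in Ptgs2 and Pla2g2e with an estrogen-response sum within the range of the other mated libraries. Whether these measures bear on each other was not tested.

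**Figure D2:**
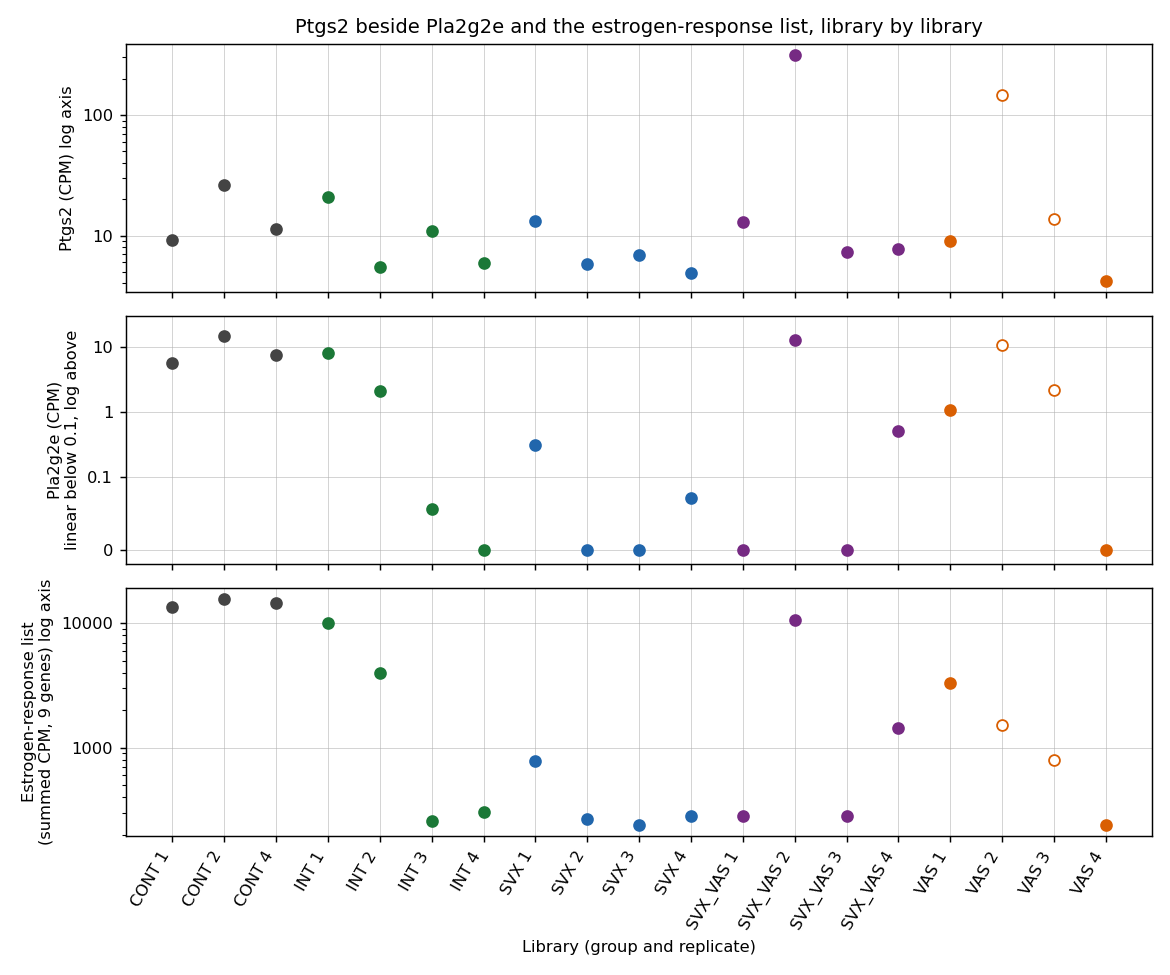
Ptgs2, Pla2g2e and the summed estrogen-response list (CPM, log axes, linear below 0.1 CPM for Pla2g2e) in each of the 19 libraries along the horizontal axis; open points are VAS replicates 2 and 3. SVX_VAS replicate 2 had 313 CPM of Ptgs2, 12.8 CPM of Pla2g2e and an estrogen-response sum of 10620 CPM.

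Ptges encodes microsomal prostaglandin E synthase 1, which makes PGE2 (ENSMUSG00000050737, chr2:30889471-30929863, - strand). It was at 6.14, 8.28 and 9.27 CPM in CONT and at 13.2, 13.4, 17.6 and 12.8 CPM in INT. All mated libraries were higher than all estrous libraries, and the logFC was 0.85 (SE 0.20, FDR 0.00208), or 1.81-fold. SVX libraries held 19.3, 11.6, 15.8 and 14.9 CPM, SVX_VAS libraries 15.2, 13.6, 16.0 and 17.8 CPM and VAS libraries 15.1, 18.8, 18.8 and 12.7 CPM. The rise passed in each, with logFC of 0.96 (SE 0.20, FDR 5.98e-04), 0.99 (SE 0.20, FDR 5.89e-04) and 1.05 (SE 0.20, FDR 3.36e-04). Of the 10 genes, Ptges had the narrowest range over the 16 mated libraries, 1.67-fold from the lowest to the highest.

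Ptgis encodes prostacyclin synthase (ENSMUSG00000017969, chr2:167191805-167240604, - strand). It was at 6.50, 7.70 and 9.94 CPM in CONT and at 13.8, 12.2, 11.2 and 11.4 CPM in INT. The groups did not overlap, but the logFC of 0.60 (SE 0.27) had an FDR of 0.0755. Fitted with only the CONT and INT libraries the FDR was 0.0181 and the logFC 0.61, and without VAS replicates 2 and 3 they were 0.0202 and 0.63. SVX libraries held 10.4, 13.3, 12.3 and 12.1 CPM, SVX_VAS libraries 11.9, 9.15, 14.7 and 10.01 CPM and VAS libraries 6.16, 14.6, 17.5 and 12.2 CPM. The logFC was 0.58 (SE 0.27, FDR 0.0735) in SVX and 0.51 (SE 0.27, FDR 0.117) in SVX_VAS, neither of which passed. In SVX it did pass with DESeq2 (FDR 0.0482), with only those 2 groups (FDR 0.00700), without CONT replicate 4 (FDR 0.0482) and without VAS replicates 2 and 3 (FDR 0.0206). In VAS the logFC of 0.65 (SE 0.27, FDR 0.0462) passed, although replicate 1 lay below every estrous library. That call was lost without CONT replicate 1 or 2 or without VAS replicate 2, 3 or 4 (FDR 0.171, 0.111, 0.0859, 0.138 and 0.0603), and without VAS replicates 2 and 3 together the logFC was 0.23. It was also lost with limma-voom (FDR 0.0581), with no low-count filter (FDR 0.0895), with the filter filterByExpr (FDR 0.0662) and with only those 2 groups (FDR 0.202).

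Hpgd, the inactivating dehydrogenase (ENSMUSG00000031613, chr8:56294585-56321043, + strand), was at 11.8, 19.1 and 13.6 CPM in CONT and at 22.8, 27.7, 24.6 and 33.0 CPM in INT. All INT libraries were above all CONT libraries, with a logFC of 0.86 (SE 0.24, FDR 0.00691), or 1.82-fold. SVX libraries held 22.9, 28.6, 30.5 and 26.0 CPM, SVX_VAS libraries 32.6, 31.3, 27.1 and 24.3 CPM and VAS libraries 13.1, 25.7, 24.3 and 30.9 CPM. Hpgd rose in SVX (logFC 0.86, SE 0.24, FDR 0.00548) and SVX_VAS (0.96, SE 0.24, FDR 0.00302). In VAS, where replicate 1 was within the estrous range, the logFC was 0.66 (SE 0.24, FDR 0.0254), and it did not pass without CONT replicate 1, CONT replicate 4 or VAS replicate 4 (FDR 0.120, 0.0813 and 0.0806) or without VAS replicates 2 and 3 (FDR 0.0857). It did not pass with limma-voom (FDR 0.0520), with no low-count filter (FDR 0.0550) or with only those 2 groups (FDR 0.138) either.

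The receptor Ptger2 binds PGE2 and raises cAMP (ENSMUSG00000037759, chr14:44988195-45003820, + strand). It was at 4.61, 4.64 and 8.81 CPM in CONT and at 23.1, 20.04, 50.7 and 35.5 CPM in INT. INT replicates 1 and 2 were lower than replicates 3 and 4, and all exceeded the estrous libraries. The same pairs differed in the epithelial sum (3441 and 2883 against 929 and 1316 CPM) and the progesterone-response sum (336.5 and 381 against 620.5 and 628 CPM). They also differed in the estrogen-response sum (10020 and 3951 against 258 and 304 CPM). The endothelial sum (662 and 721 against 988 and 955 CPM) and the gland sum (237 and 244 against 620.5 and 376 CPM) split likewise. The part of these sums in the Ptger2 values was not tested. The logFC was 2.44 (SE 0.38, FDR 8.54e-05), or 5.43-fold. SVX libraries held 33.9, 39.9, 31.3 and 46.7 CPM, SVX_VAS libraries 43.9, 22.9, 36.9 and 30.3 CPM and VAS libraries 19.8, 31.6, 42.0 and 44.2 CPM. The rise passed in each of these, with logFC of 2.67 (SE 0.38, FDR 2.59e-05), 2.49 (SE 0.38, FDR 5.79e-05) and 2.53 (SE 0.38, FDR 4.82e-05).

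Ptger4 encodes another PGE2 receptor that raises cAMP (ENSMUSG00000039942, chr15:5206661-5244187, - strand). It was at 133, 132 and 132 CPM in CONT, a spread of 0.736 CPM (SD, n = 3), and at 116, 94.0, 89.9 and 110 CPM in INT. All INT libraries were below all CONT libraries, but the logFC of -0.37 (SE 0.14, FDR 0.0428) was short of the fold cutoff. SVX libraries held 90.3, 114, 125 and 131 CPM, SVX_VAS libraries 113, 122, 114.5 and 103 CPM and VAS libraries 81.6, 78.0, 68.5 and 108 CPM. All 16 mated libraries thus lay below the 3 estrous libraries. Ptger4 fell by the cutoffs in VAS alone (logFC -0.66, SE 0.14, FDR 0.00103), and the call was lost without VAS replicate 3 (logFC -0.55) and without VAS replicates 2 and 3 (logFC -0.44, FDR 0.0250). In SVX and SVX_VAS the logFC was -0.20 (FDR 0.248) and -0.23 (FDR 0.194).

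Ptgfr encodes the PGF2alpha receptor (ENSMUSG00000028036, chr3:151796502-151837630, - strand). It was at 0.236, 1.07 and 1.05 CPM in CONT and at 6.69, 7.45, 7.25 and 9.11 CPM in INT. The estrous values rest on as few as 4 counts per library, and all 16 mated libraries were higher. The logFC was 3.25 (SE 0.52, FDR 1.11e-04), or 9.54-fold. SVX libraries held 9.05, 10.6, 10.5 and 10.5 CPM, SVX_VAS libraries 8.11, 10.2, 8.71 and 4.97 CPM and VAS libraries 3.53, 19.4, 15.1 and 12.98 CPM. VAS replicates 2 and 3 had the highest levels and VAS replicate 1 the lowest of the mated libraries. The logFC was 3.67 (SE 0.53, FDR 2.77e-05) in SVX, 3.33 (SE 0.52, FDR 7.41e-05) in SVX_VAS and 3.996 (SE 0.53, FDR 1.86e-05) in VAS, where it was 3.38 (FDR 1.17e-04) without replicates 2 and 3.

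**Figure D3:**
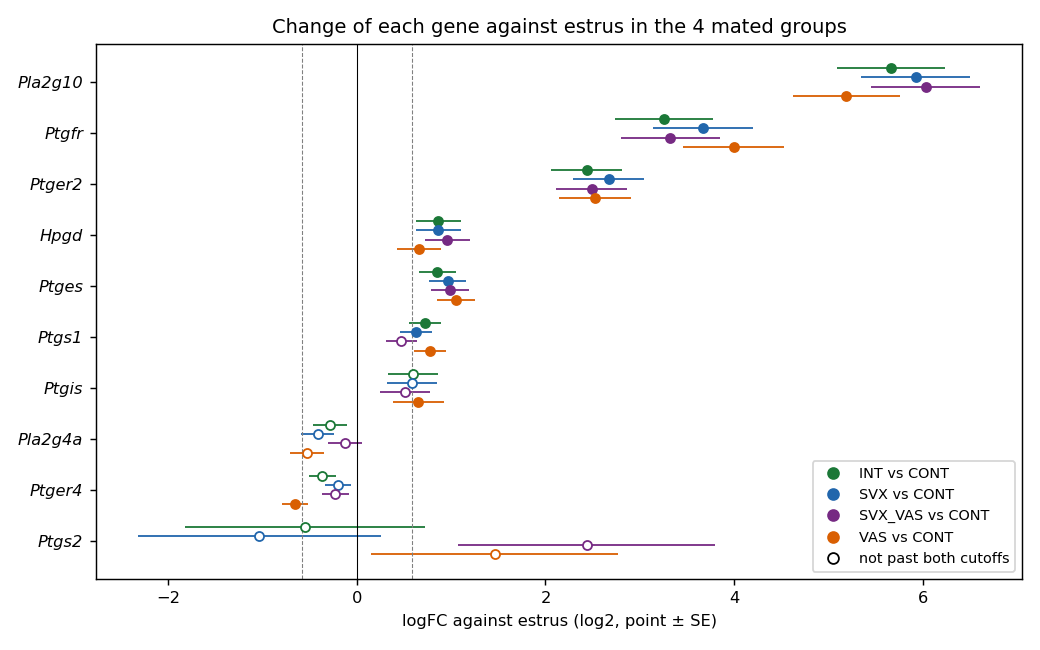
The logFC against CONT (log2, horizontal axis) with its SE for each gene in the INT, SVX, SVX_VAS and VAS comparisons; filled points passed both cutoffs and dashed lines mark the fold cutoff. Pla2g10, Ptgfr and Ptger2 lay between 2.44 and 6.03 in all 4 comparisons, and Ptgs2 had the widest errors.

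The genes most like Pla2g10 across the 19 libraries were Rims3 (root mean square difference 0.32), Npl (0.32) and Gm8388 (0.35). Those most like Ptger2 were Gm14230 (0.19), Gja4 (0.22) and Pvt1 (0.23), and those most like Ptgfr were Glb1l2 (0.29), Slc1a3 (0.30) and Nlgn1 (0.31). Among the 10 genes themselves Ptger2 and Ptgfr were nearest to each other, at 0.67, and Pla2g10 was 0.95 from Ptgfr. Npl, a sialic acid aldolase, had 0.83 to 2.34 CPM in CONT, 68.9 to 172 CPM in INT and 24.5 CPM in VAS replicate 1, the lowest of its mated libraries, as for Pla2g10 itself. Gja4, the gap junction protein connexin 37 of blood vessels, was at 2.84 to 3.84 CPM in CONT and 11.8 to 19.8 CPM in INT. These values describe likeness over libraries that share the contrast between estrus and day 3.5 pc.

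The levels of different genes were compared per kilobase of gene length. In CONT the order of mean levels was Pla2g4a, Ptger4 (19.9 ± 0.111 CPM per kb), Hpgd (8.81 ± 2.26), Ptgs1 (7.27 ± 0.737), Ptgs2 (3.42 ± 2.05), Ptgis (3.14 ± 0.681), Ptges (2.01 ± 0.406), Ptger2 (1.63 ± 0.657), Pla2g10 and Ptgfr (0.116 ± 0.0704). In INT it was Pla2g4a, Pla2g10, Hpgd (16.1 ± 2.67), Ptger4 (15.4 ± 1.89), Ptgs1 (12.0 ± 2.95), Ptger2 (8.79 ± 3.79), Ptgis (4.74 ± 0.463), Ptges (3.62 ± 0.577), Ptgs2 (2.35 ± 1.55) and Ptgfr (1.13 ± 0.154). Pla2g10 moved from the ninth to the second place. Neighbours in CONT that differed by less than the larger SD of the pair were Hpgd and Ptgs1, Ptgs2 and Ptgis, and Ptges and Ptger2. In INT these were Pla2g4a and Pla2g10, Pla2g10 and Hpgd, Hpgd and Ptger4, Ptgs1 and Ptger2, Ptges and Ptgs2, and Ptgs2 and Ptgfr. Ptgfr stayed the lowest of the 10 in both groups.

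**Figure D4:**
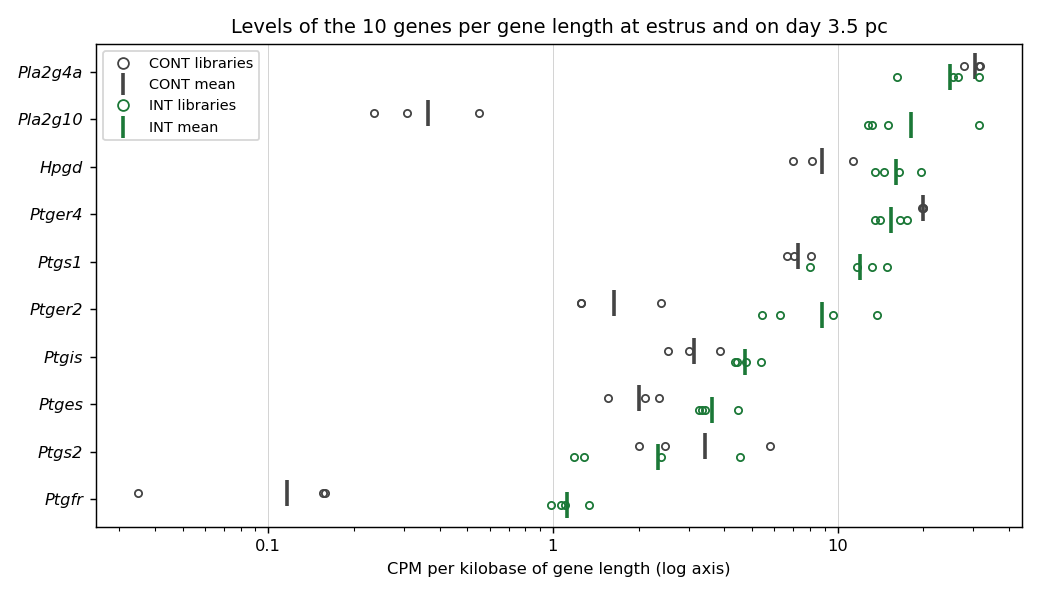
Level per gene length (CPM per kilobase, log axis) of each gene in CONT and INT; circles are libraries and bars are group means. Pla2g10 went from a mean of 0.365 to 18.1 CPM per kb, while Pla2g4a had the highest mean in both groups.

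Among the mated groups, INT served as the reference for SVX, SVX_VAS and VAS, so that the 4 matings could be compared at the same day. None of the 10 genes differed from INT in any of the 3 groups, and 0% of all genes passed in each of these comparisons by edgeR. At an unadjusted p under 0.05 there were 749, 339 and 1831 of the 17222 genes for SVX, SVX_VAS and VAS, and 0, 1 and 1 of the 10. The 2 were Ptgs2 in SVX_VAS (logFC 2.99, SE 1.26, FDR 1) and Ptger4 in VAS (logFC -0.29, SE 0.13, FDR 0.452). DESeq2 called 3, 2 and 0 genes and limma-voom 0, 0 and 1663, with 0 of the 10 by either. Leaving out Ptgs2, the logFC of the other 9 genes lay between -0.13 and 0.42 for SVX, between -0.25 and 0.37 for SVX_VAS and between -0.48 and 0.74 for VAS, with an SE of up to 0.41. For all 10 genes the libraries of each group overlapped those of INT, where 2.6%, 1.75% and 1.23% of all genes tested did not overlap in SVX, SVX_VAS and VAS. The 0.74 belonged to Ptgfr in VAS (SE 0.41, FDR 0.456), which was 0.11 without VAS replicates 2 and 3, and the -0.48 to Pla2g10 in VAS (SE 0.38, FDR 0.534). The missing calls do not show that the groups were alike.

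The remaining genes of the pathway were counted in 4 lists. Of 18 further phospholipase genes, 10 were expressed above the filter, and in INT against CONT 1 rose, 2 fell and 7 did not pass. Pla2g15, the lysosomal enzyme, rose (logFC 0.66, SE 0.18, FDR 0.00556), and the call was lost without CONT replicate 1 (logFC 0.56). Pla2g2d, a secreted enzyme that passed the filter only through CONT, went from 5.55, 3.67 and 3.92 CPM to 2.10, 1.25, 0.057 and 0.139 CPM (logFC -2.32, SE 0.92, FDR 0.0487). Pla2g7, which degrades platelet-activating factor, went from 37.7, 42.2 and 43.2 CPM to 18.04, 32.3, 28.1 and 13.4 CPM (logFC -0.84, SE 0.29, FDR 0.0251). The fall of Pla2g2d did not pass without CONT replicate 1, 2 or 4 or INT replicate 2, 3 or 4 (FDR up to 0.128), nor with DESeq2 (FDR 0.0565) or no low-count filter (FDR 0.0606), and that of Pla2g7 without CONT replicate 2 or 4 or INT replicate 1 or 4 (FDR up to 0.0739). The 8 genes under the filter reached at most 3.60 CPM in any library (Pla2g3). The median logFC of the 10 tested was -0.30, against -0.01 for all genes.

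Of 11 other terminal synthases and reductases, 9 were tested, of which 2 rose and 1 fell. Akr1b8, an aldo-keto reductase, went from 3.49, 4.89 and 3.62 CPM to 14.1, 12.3, 18.2 and 17.7 CPM (logFC 1.96, SE 0.18, FDR 2.48e-06). Fam213b, a prostaglandin F synthase, went from 2.78, 3.10 and 3.54 CPM to 4.58, 4.45, 5.78 and 6.26 CPM (logFC 0.75, SE 0.18, FDR 0.00314). Ptges2, a membrane-associated PGE synthase, fell from 52.7, 53.1 and 47.2 CPM to 33.7, 26.6, 19.5 and 16.6 CPM (logFC -1.08, SE 0.22, FDR 7.00e-04). Ptges and Ptges2 thus moved in opposite directions, and the groups did not overlap for either. Per kilobase of gene length, Ptges2 was at 10.4, 10.5 and 9.32 and Ptges at 1.56, 2.11 and 2.36 CPM per kb in CONT. In INT, Ptges2 was at 6.66, 5.26, 3.85 and 3.27 and Ptges at 3.35, 3.41, 4.48 and 3.26 CPM per kb, so that Ptges was the higher of the pair in replicate 3. The median logFC of the list was -0.04.

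Of 9 further receptor and receptor-linked genes, 6 were tested, with 1 higher and 1 lower. Ptger3, the PGE2 receptor that lowers cAMP, was at 3.01, 4.10 and 3.69 CPM in CONT and at 37.8, 23.5, 30.5 and 38.5 CPM in INT (logFC 3.17, SE 0.45, FDR 4.06e-05). Ptgfrn, an inhibitor of the PGF2alpha receptor, was at 347, 269 and 275 CPM in CONT and at 168, 186, 101 and 88.8 CPM in INT (logFC -1.13, SE 0.28, FDR 0.00377). The receptor gene Ptgfr and its inhibitor Ptgfrn therefore changed in opposite directions between the same libraries. Of the 4 PGE2 receptor genes, Ptger2 and Ptger3 rose, Ptger4 was short of the fold cutoff, and Ptger1 had a logFC of -0.34 (SE 0.68, FDR 0.727). Ptger1 was at 63.6 to 94.5 CPM in 17 libraries but at 3.94 and 3.88 CPM in VAS replicates 2 and 3. The prostacyclin receptor Ptgir and the thromboxane receptor Tbxa2r stayed under the filter, at up to 2.61 and 2.24 CPM. The list had a median logFC of -0.41.

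Of the 4 genes of inactivation and transport, 0 passed in INT against CONT. Ptgr2, a prostaglandin reductase, had a logFC of -0.52 (SE 0.09, FDR 2.11e-04), and Abcc4, an exporter of prostaglandins, of 0.51 (SE 0.12, FDR 0.00214), both short of the fold cutoff. The median logFC of these 4 was 0.22.

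**Figure D5:**
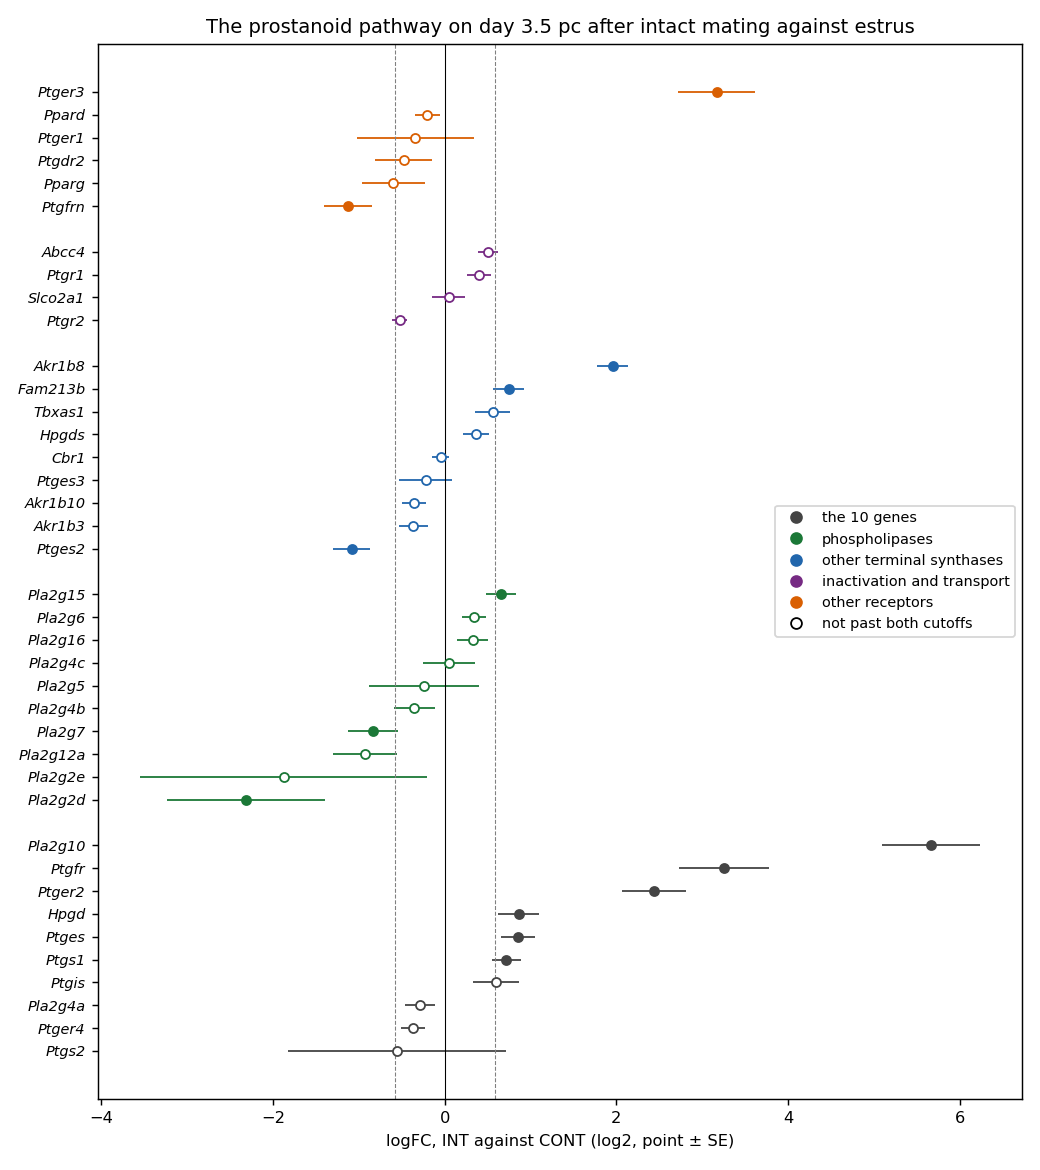
The logFC of INT against CONT (log2, horizontal axis) with its SE for the 10 genes and for the 29 tested genes of the 4 pathway lists, grouped by role; filled points passed both cutoffs. Pla2g10 (5.67), Ptgfr (3.25) and Ptger3 (3.17) lay farthest to the right, and Pla2g2d (-2.32) and Pla2g2e (-1.87) farthest to the left.

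Exons of 4 of the 10 genes overlap a gene on the opposite strand, and whether reads were counted by strand was not given in the sources used here. Ptger4 overlaps Ttc33, which was at 55.3 ± 2.51 CPM in CONT and 31.7 ± 4.81 CPM in INT, and Gm15937, at 5.11 ± 0.926 and 3.21 ± 0.440 CPM. Ptgs1 overlaps Gm43621, at 3.97 ± 0.253 and 6.06 ± 1.39 CPM. In VAS, Gm43621 was at 0 CPM in replicates 2 and 3, and at 7.95 and 6.10 CPM in replicates 1 and 4. Ptgis overlaps 1110018N20Rik and Ptgfr overlaps Gm43618, at up to 1.51 and 1.54 CPM in any library. The share of reads that such partners could pass to each other was not tested.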

How the data were processed

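Total RNA of pooled endometrial samples was sequenced in 19 libraries. The authors prepared stranded libraries (TruSeq), sequenced both ends, removed adapters, aligned reads with STAR to GRCm38 and counted them per gene with featureCounts, and the deposited values are raw counts without normalization. Depth was 12661266 to 31781270 counts per library, which sets the precision of low genes.

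The low-count filter kept the 17222 of 49089 genes that reached 3 CPM in 3 or more of the 19 libraries. One quasi-likelihood model over all 5 groups was fitted with edgeR 4.0.16 in R 4.3.3, by glmQLFit and glmQLFTest with TMM normalization, and FDR follows Benjamini-Hochberg. CPM use TMM-scaled library sizes, log2 CPM a prior count of 2, and an SE is the logFC divided by the root of its F statistic. The fit was tested on simulated data. Genes named were the 10 members, genes of 4 pathway lists past both cutoffs in INT against CONT, and the 3 nearest genes for members whose log2 CPM had an SD over 1. Of the other pathway genes named, Pla2g2e, Pla2g3, Ptger1, Ptgir, Tbxa2r, Ptgr2 and Abcc4 were chosen after their values were seen. The members and lists were chosen with earlier results of these data known. Alternatives were DESeq2 1.42.0, its size factors, limma-voom (limma 3.58.1), other filters, only the groups compared, a replicate block and each library left out. Leaving out VAS replicates 2 and 3 was chosen after seeing the data. Figures were drawn with matplotlib.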

Additional observations from a re-analysis of the deposited data

Results flagged for a closer look

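In 72 sets of 4 libraries (18 genes in 4 mated groups), a library lay apart from its group by Dixon's test at 95% in 8. Chance alone gives about 1 set in 20, or 3.6 of 72. Ptgs2 was at 313.0 CPM in SVX_VAS replicate 2, where the other 3 libraries lay between 7.34 and 13.1 CPM. It was at 146.0 CPM in VAS replicate 2, against 4.21 to 13.7 CPM. Pla2g10 was at 47.3 CPM in INT replicate 4, against 19.2 to 22.7 CPM, and Ptges at 17.62 CPM in INT replicate 3, against 12.8 to 13.4 CPM. Ptgfr was at 9.053 CPM in SVX replicate 1, against 10.5 to 10.6 CPM. Ptgfrn was at 114.8 CPM in SVX replicate 1, against 90.6 to 93.5 CPM, and at 223.0 CPM in VAS replicate 1, against 96.7 to 116 CPM. Ptger3 was at 10.3 CPM in VAS replicate 1, against 46.9 to 50.1 CPM. Pla2g2e, which was named after its values were seen and is not among the 18 genes, was at 12.84 CPM in SVX_VAS replicate 2, against 0 to 0.512 CPM.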

How the results depend on the processing

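The 6 rises of INT against CONT passed in all 15 alternatives run, those that leave out a library included. Over the members, 1009 of 1080 refitted logFC values kept their direction and their side of the cutoffs, 21 lost the call, 9 gained it and 41 changed sign, and 0 of those 41 had been called. Among counts of calls, DESeq2 gave 3 genes for SVX against INT and 2 for SVX_VAS against INT, and limma-voom gave 1663 for VAS against INT. Leaving out 1 library gave 0 to 578 genes for VAS against INT, with 578 without VAS replicate 1 and 135 without VAS replicate 4. Without VAS replicates 2 and 3, 5 of the 10 genes passed for VAS against CONT, and the median logFC of that comparison moved by 0.12. The causes were not tested.

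With that pair left out the sign changed for Ptgs2 (-1.19 against CONT and -0.66 against INT), Ptges (-0.017), Ptgis (-0.40) and Ptger2 (-0.0097), the last 3 for VAS against INT. Hpgd for SVX against INT was 0.0086 with DESeq2's size factors, 0.0086 with DESeq2, 0.0059 with limma-voom, 0.0028 with only those groups and 0.0022 with the replicate block. Ptgis for VAS against INT was -0.0055 with limma-voom and -0.0030 with the replicate block.

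With 1 library left out, the logFC ranges that crossed 0 were as follows. For Ptgs2 they were -1.08 to 0.067 in INT, -0.74 to 3.06 in SVX_VAS and -0.78 to 2.08 in VAS against CONT, and -0.88 to 0.043 in SVX, -0.20 to 3.52 in SVX_VAS and -0.25 to 2.54 in VAS against INT. For SVX against INT they were -0.24 to 0.033 for Ptgs1, -0.27 to 0.0013 for Pla2g4a, -0.018 to 0.26 for Ptges, -0.067 to 0.051 for Ptgis and -0.075 to 0.11 for Hpgd. For SVX_VAS against INT they were -0.23 to 0.0085 for Ptgis, -0.12 to 0.37 for Ptger2 and -0.069 to 0.24 for Ptgfr. For VAS against INT they were -0.093 to 0.18 for Ptgs1, -0.15 to 0.28 for Ptgis and -0.086 to 0.43 for Ptger2.

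Libraries of different groups share replicate numbers, and the main fit used no pairing by them. The values that follow do not settle whether the numbers mark a pairing. Of 36 pairs of same-numbered libraries, 15 correlated above 0.1 in their deviations from the group means (range -0.69 to 0.58), and 4 of 19 libraries correlated best with their own number. With the replicate block, 5606, 6923, 6411 and 6779 genes passed for INT, SVX, SVX_VAS and VAS against CONT in place of 5791, 7163, 6655 and 6985, and the members' counts were 6, 6, 5 and 7. The calls of Ptgis in VAS (FDR 0.0979) and of Pla2g7 in INT (FDR 0.0552) were lost with it. The Ptgs2 logFC for INT against CONT was then 0.0289.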
